A study of Homo sapiens and Mus musculus with 21 samples.

Results

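The difference between 2 mesothelioma cell lines in their response to loss of BAP1 was examined, using 8 of the 21 libraries of the series. Mesothelioma is a tumour of the lining of the pleura. The lines were H2810, labelled Bap1 wildtype elsewhere in the series, and MSTO-211H, whose BAP1 status the labels do not give. Each line carried either "Random shRNA" or "BAP1 shRNA" (shBAP1), with 2 libraries in each of the 4 groups, and all groups are thus hairpin-bearing cells. The labels give neither the hairpin sequences nor the time after delivery, and they do not say whether the 2 libraries of a group came from separate cultures. All p-values therefore measure the spread between these libraries, which may be technical. A response is the log2 fold change of shBAP1 over the random shRNA within 1 line, and the difference is the response in MSTO-211H minus the response in H2810. Levels are CPM, the usual count of a gene relative to its library total, here with the total adjusted by TMM factors. Genes were called at an adjusted p under 0.05 in edgeR's quasi-likelihood test, adjusted by Benjamini-Hochberg over the whole table.

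BAP1 is the catalytic subunit of the PR-DUB complex, which removes the ubiquitin that Polycomb repressive complex PRC1 places on histone H2A. Loss of BAP1 is among the most frequent lesions of mesothelioma, and it changes both Polycomb repression and the activity of active genes. Interferons are antiviral cytokines that switch on a shared set of defence genes through transcription factors that bind the interferon-stimulated response element of promoters.

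Of 15872 genes tested, 4397 (27.7%) were called for the difference. The response was higher in MSTO-211H for 1783 genes (11.2%) and lower for 2614 (16.5%). The counts of called list members below are to be read beside these shares. The difference was at least 2-fold for 966 called genes (6.09%), 504 higher and 462 lower. BAP1 itself had no called difference. BAP1 (chr3:52401008-52410008 in GRCh38) stood at 115 and 117 CPM in H2810 with the random shRNA, 13.4 and 20.3 with shBAP1, 100.1 and 103 in MSTO-211H with the random shRNA and 15.4 and 17.7 with shBAP1. The target was thus far lower in all 4 shBAP1 libraries, and the shBAP1 levels of the 2 lines overlapped. Its response was -2.79 ± 0.13 in H2810 and -2.61 ± 0.13 in MSTO-211H, a difference of 0.18 ± 0.18 (adjusted p = 0.532). Without H2810 shBAP1 replicate 1 that difference was -0.11, and without replicate 2 it was 0.49 and was called (adjusted p = 0.00632).

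The called genes fell into 3 kinds. Opposite directions, with a call in each line, were found for 679 genes (4.28% of those tested), of which 399 rose in H2810 and fell in MSTO-211H and 280 did the reverse. A call in 1 line only was found for 2667 genes: 743 up and 489 down in H2810, 661 up and 774 down in MSTO-211H. For the other line these genes are not shown to be unaffected. Both lines moved in the same direction, by different amounts, for 968 genes. Of these, 276 rose more in H2810 and 199 more in MSTO-211H, while 112 fell more in H2810 and 381 more in MSTO-211H. The remaining 83 were called in neither line. The median difference over all genes tested was -0.02. Across genes the 2 responses had a Pearson correlation of 0.29 and a Spearman correlation of 0.38 over 15872 genes, which are not independent replicates; no library is shared between the 2 responses. Of 13051 protein-coding genes 31.9% were called, and of 1865 long non-coding RNAs 9.65%. The same-direction count depended on single libraries: it was 632 and 616 without MSTO-211H random replicates 1 and 2, and 559 and 543 without its shBAP1 replicates 1 and 2. The count of genes with a higher response in MSTO-211H was 1177 without MSTO-211H random replicate 2, and DESeq2 gave 436 opposite and 583 same-direction genes.

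**Figure D1:**
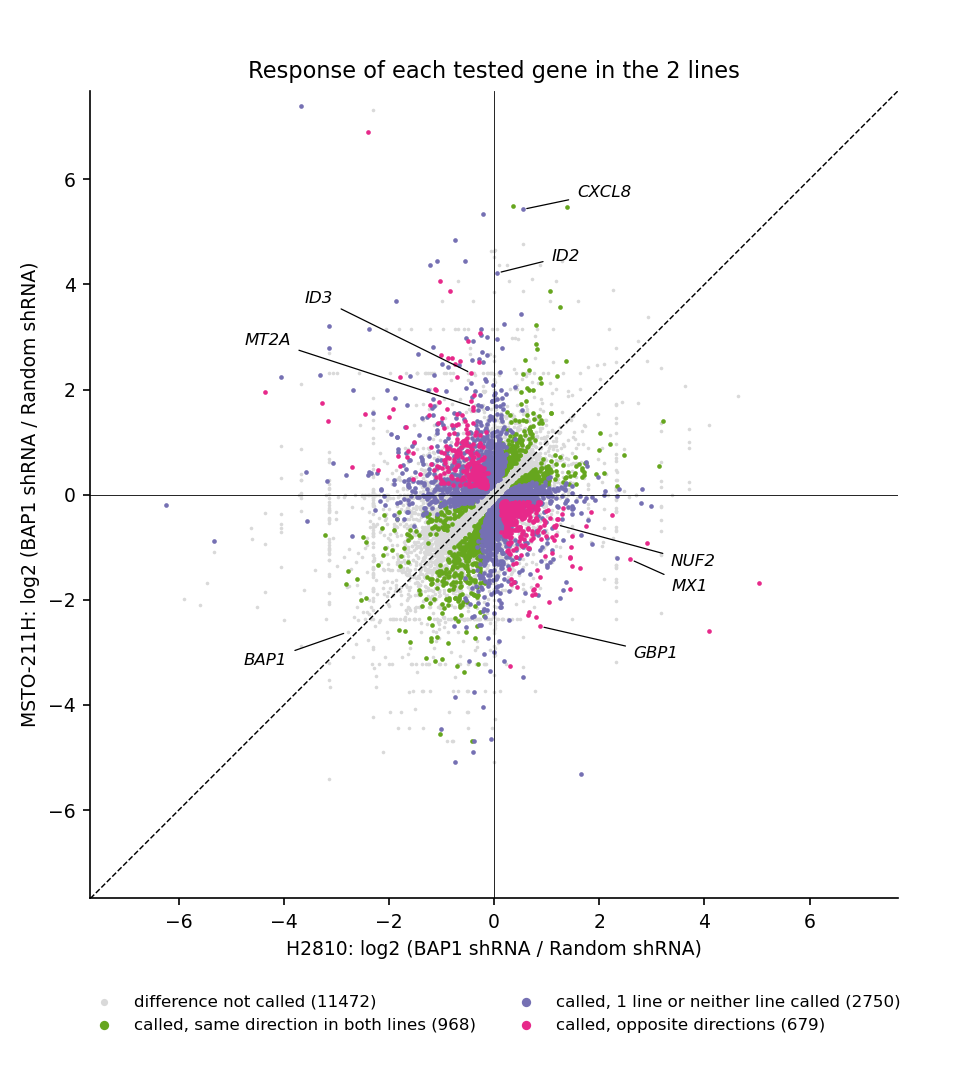
Response to shBAP1 of every tested gene in H2810 (horizontal axis) and MSTO-211H (vertical axis), as log2 fold change over the random shRNA; each point is 1 gene, coloured by the kind of difference, and the dashed line marks equal responses. MX1 and GBP1 lie below the dashed line at the lower right, ID3 and MT2A at the upper left, and BAP1 close to the line; rows and columns of aligned grey points are genes with few counts in 1 line.

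The interferon-stimulated genes moved apart in the 2 lines. Of 42 interferon-stimulated genes, all tested, 32 had a lower response in MSTO-211H and 3 a higher one, with a median difference of -1.16. The 3 higher became 1 in several settings, among them without replicate 2 of either H2810 group or without either MSTO-211H shBAP1 library. In H2810, 41 of the 42 rose and none fell (22.5% of all genes tested rose and 23.3% fell in that line). In MSTO-211H, 13 rose and 18 fell (21.7% and 24.5% of all genes), and all 18 of those that fell had risen in H2810. The list was drawn up with earlier results of these data known, so its direction is a description.

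Short stretches of the promoters are shown for members with different patterns, since they carry the element through which interferon acts. RefSeq promoters (250 bases before to 50 after a gene's start, GRCh38.p14) were found for 34 of the 42 genes. The element, searched on both strands as TTTC, 2 bases of any kind and TTTC again (GAAA, 2 bases and GAAA when read on the other strand), was present in 23 of these 34 (67.6%), against 3.65% of 27305 promoters and 2.95% of the 11375 promoters of tested genes. It was present in 20 of the 28 matched genes whose response was lower in MSTO-211H and in 3 of the 6 that were not lower. The element is in capitals in these 30-base windows, which are read 5′ to 3′ on the strand of the gene.
OAS3: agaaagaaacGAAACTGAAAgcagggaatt
EPSTI1: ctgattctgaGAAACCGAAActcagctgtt
DTX3L: ccagggaagcGAAACTGAAActttgcgccc
IFI44: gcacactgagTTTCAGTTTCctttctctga
IFITM3: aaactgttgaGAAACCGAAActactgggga
IFIT1: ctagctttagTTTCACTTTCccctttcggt
ISG15: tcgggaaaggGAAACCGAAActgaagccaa
SAMD9: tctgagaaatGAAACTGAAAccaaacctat
The windows lie at chr12:112938321-112938350, + strand (OAS3), chr13:42992272-42992301, - strand (EPSTI1), chr3:122564322-122564351, + strand (DTX3L), chr1:78649761-78649790, + strand (IFI44), chr11:320876-320905, - strand (IFITM3), chr10:89392497-89392526, + strand (IFIT1), chr1:1013380-1013409, + strand (ISG15) and chr7:93118096-93118125, - strand (SAMD9). The first 4 genes moved in opposite directions in the 2 lines, IFITM3 rose in H2810 and was not called in MSTO-211H, IFIT1 and ISG15 rose in both and rose more in H2810, and SAMD9 rose in both with no called difference. A match describes these letters only.

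MX1, a GTPase that blocks viral replication, had the largest difference of the list. MX1 (chr21:41420304-41459214) stood at 59.9 and 58.6 CPM in H2810 with the random shRNA, 365 and 349 with shBAP1, 3.21 and 3.18 in MSTO-211H with the random shRNA and 1.73 and 1.01 with shBAP1. The random-hairpin level was thus already far higher in H2810, and within each line the 2 groups did not overlap. It rose by 2.59 ± 0.07 in H2810 and fell by 1.23 ± 0.19 in MSTO-211H, a difference of -3.82 ± 0.20 (adjusted p = 4.1e-07). OAS1 and OAS3, synthetases whose product activates the RNA-degrading enzyme RNase L, did the same. OAS3 stood at 106 and 102 CPM in H2810 with the random shRNA, 522 and 469.6 with shBAP1, 19.1 and 16.4 in MSTO-211H with the random shRNA and 12.9 and 14.4 with shBAP1, with a difference of -2.63 ± 0.12 (adjusted p = 2.07e-07). The fall of OAS3 in MSTO-211H was small (-0.38) against its rise in H2810 (2.25).

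PARP9 and DTX3L, partner enzymes of ADP-ribosylation and ubiquitination that are encoded next to each other on chromosome 3, had the opposite balance, with the larger part of the difference in MSTO-211H. PARP9 (chr3:122527924-122564577) stood at 52.2 and 52.5 CPM in H2810 with the random shRNA, 83.3 and 81.7 with shBAP1, 16.3 and 16.4 in MSTO-211H with the random shRNA and 3.90 and 3.08 with shBAP1. It rose by 0.66 ± 0.06 in H2810 and fell by 2.23 ± 0.10 in MSTO-211H (difference -2.89 ± 0.12, adjusted p = 1.61e-07). DTX3L rose by 0.78 ± 0.06 and fell by 1.89 ± 0.09 (difference -2.67 ± 0.11). The 2 genes start head to head, and it is not known whether the counting used strand, so reads near their starts may be shared. GBP1, an interferon-induced GTPase that attacks intracellular microbes, stood at 47.3 and 47.6 CPM in H2810 with the random shRNA, 84.8 and 88.8 with shBAP1, 11.5 and 11.2 in MSTO-211H with the random shRNA and 2.36 and 1.67 with shBAP1. It rose by 0.87 ± 0.06 in H2810 and fell by 2.50 ± 0.13 in MSTO-211H (difference -3.38 ± 0.14, adjusted p = 1.98e-07). APOBEC3G, an antiviral cytidine deaminase, had 209 and 197 counts in H2810 with the random shRNA, 180 and 165 with shBAP1, 32 and 19 in MSTO-211H with the random shRNA and 1 and 2 with shBAP1. It fell in MSTO-211H and was not called in H2810, and the difference was called (adjusted p = 0.000453) with 1 and 2 counts in the lowest group. Over the 12 tested guanylate-binding proteins and interferon-gamma-type genes, 5 were lower in MSTO-211H and 2 higher, and the 2 became 1 under most left-out libraries.

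Other members differed only in the size of the rise. ISG15, a ubiquitin-like modifier, stood at 68.1 and 70.5 CPM in H2810 with the random shRNA, 279 and 279 with shBAP1, 8.90 and 10.9 in MSTO-211H with the random shRNA and 22.9 and 22.2 with shBAP1; both lines rose, H2810 by 2.01 ± 0.06 and MSTO-211H by 1.18 ± 0.09. IFIT1, which binds foreign RNA caps, rose by 1.54 ± 0.06 and 0.71 ± 0.08. OASL went the other way, rising by 0.71 ± 0.05 in H2810 and 1.10 ± 0.07 in MSTO-211H (difference 0.39 ± 0.08), and its call held in all 15 alternative settings, which those of IFIT2 and LY6E, the other 2 higher genes, did not. OAS2, RSAD2 and SAMD9 rose in both lines with no called difference, while OAS2 and RSAD2 stayed under 4 CPM in MSTO-211H. XAF1 rose in H2810 by 1.18 ± 0.08 and had 0 and 1 counts in MSTO-211H with the random shRNA and 4 and 1 with shBAP1, too few for a ratio.

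**Figure D2:**
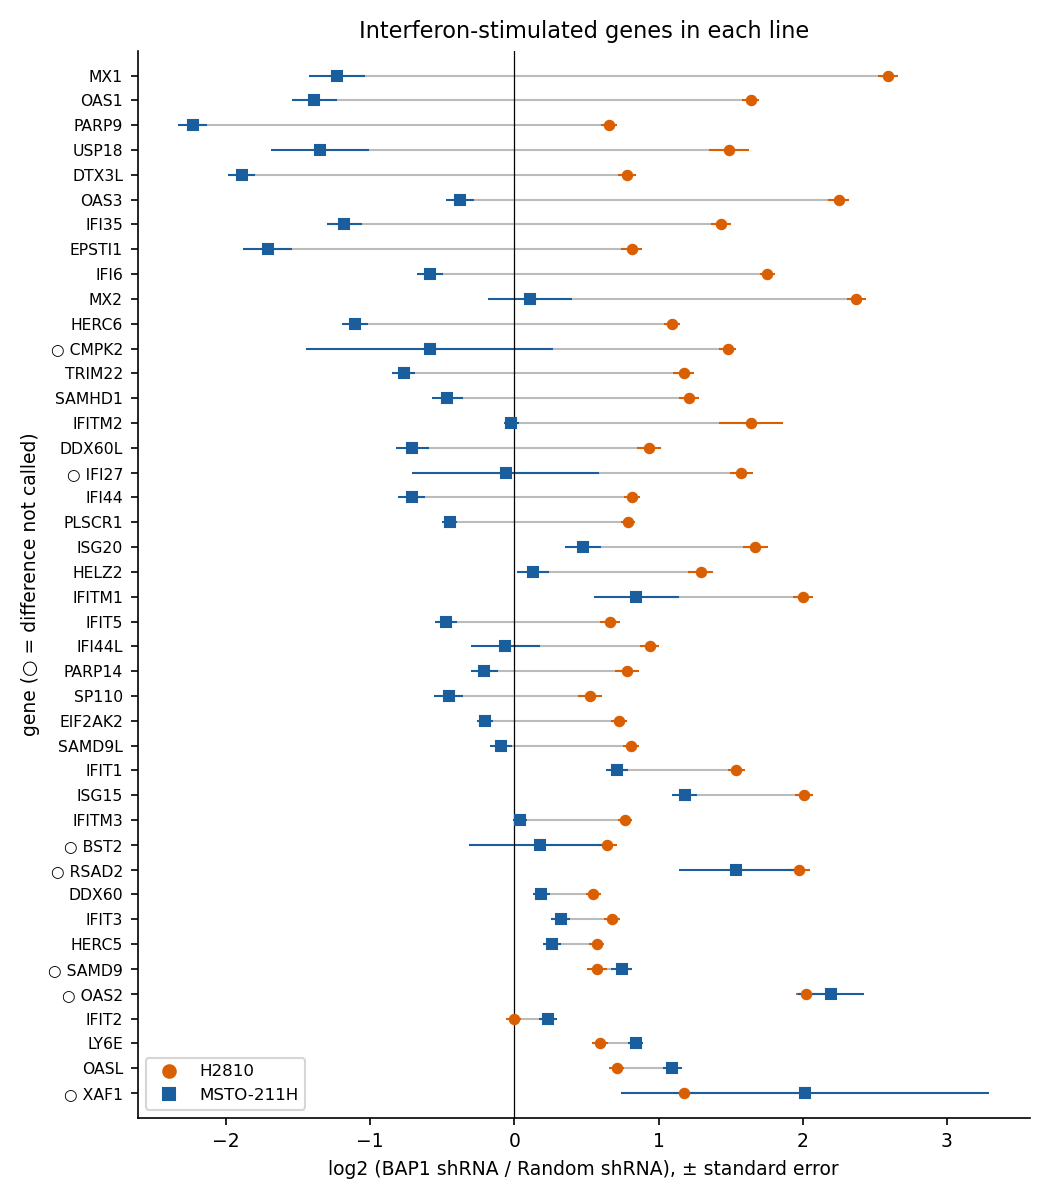
Response of the 42 interferon-stimulated genes in H2810 (circles) and MSTO-211H (squares) as log2 fold change of shBAP1 over the random shRNA, with bars of 1 standard error from the fit; genes are ordered by the difference and an open circle before a name marks a difference that was not called. Nearly all circles lie to the right of 0, while the squares lie on both sides; MX1 has the widest gap and wide bars mark genes with few counts in MSTO-211H.

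Upstream of these genes the lines differed less uniformly. Of 28 tested genes of interferon sensing and signalling, 7 had a higher and 11 a lower response in MSTO-211H, with a median difference of 0.11; the 11 became 6 without MSTO-211H shBAP1 replicate 2. IFIH1, a sensor of double-stranded RNA, stood at 59.8 and 57.4 CPM in H2810 with the random shRNA, 129 and 128 with shBAP1, 12.3 and 10.7 in MSTO-211H with the random shRNA and 8.27 and 7.05 with shBAP1. It rose by 1.13 ± 0.06 in H2810 and fell by 0.59 ± 0.10 in MSTO-211H (difference -1.72 ± 0.12, adjusted p = 2.58e-06), and the RNA sensor RIGI rose in both, by 1.32 ± 0.05 and 0.57 ± 0.06. IRF1, a transcription factor of interferon and cytokine genes, rose in both lines and more in MSTO-211H (0.35 ± 0.05 and 1.02 ± 0.07, difference 0.67 ± 0.08). STING1, the adaptor of cytosolic DNA sensing, also rose more in MSTO-211H (difference 0.38 ± 0.08). IFNGR1, a chain of the interferon-gamma receptor, fell by 0.88 ± 0.06 in H2810 and was not called in MSTO-211H (difference 0.97 ± 0.08). The gene for interferon beta, IFNB1, was below the filter, with 1 and 0 counts in H2810 with the random shRNA, 7 and 5 with shBAP1, 0 and 0 in MSTO-211H with the random shRNA and 0 and 2 with shBAP1.

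MHC class I molecules display peptides, cut by the immunoproteasome and carried by the TAP transporter, to T cells. Of 22 tested genes of this route, 13 had a lower response in MSTO-211H and none a higher one, with a median difference of -0.50. HLA-B (chr6:31353872-31357188), a class I heavy chain, stood at 1032 and 1116 CPM in H2810 with the random shRNA, 1186 and 1175 with shBAP1, 185 and 188 in MSTO-211H with the random shRNA and 114 and 115 with shBAP1. It rose by 0.14 ± 0.05 in H2810 and fell by 0.71 ± 0.05 in MSTO-211H (difference -0.84 ± 0.07, adjusted p = 1.04e-05). The HLA genes are similar in sequence and vary between people, so the share of reads assigned to each may differ between the lines. The neighbouring genes TAP2, PSMB8, PSMB8-AS1, PSMB9 and TAP1, on chromosome 6 from 32821833 to 32859851, were all called lower, 1 of 7 runs of at least 5 adjacent tested genes called in 1 direction. PSMB9, an immunoproteasome subunit, stood at 44.8 and 50.2 CPM in H2810 with the random shRNA, 62.7 and 63.6 with shBAP1, 12.1 and 12.7 in MSTO-211H with the random shRNA and 6.49 and 5.73 with shBAP1. It rose by 0.41 ± 0.06 in H2810 and fell by 1.02 ± 0.10 in MSTO-211H, and PSMB8 did the same (0.57 ± 0.06 and -0.85 ± 0.06). TAP1 rose in both lines and more in H2810. B2M, the invariant light chain of class I molecules, rose by 0.27 ± 0.05 and 0.30 ± 0.05 with no called difference (0.03 ± 0.07, adjusted p = 0.831).

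Mitotic genes moved apart, while most replication genes rose in both lines. Of 39 tested genes of mitosis and the G2/M transition, 35 had a lower response in MSTO-211H and 1 a higher one. Over all genes tested these shares were 16.5% and 11.2%. The median difference of the list was -0.53. In H2810, 29 rose and 1 fell (22.5% and 23.3% of all genes tested). In MSTO-211H 3 rose and 23 fell (21.7% and 24.5% of all genes). Of the list, 17 rose in H2810 and fell in MSTO-211H. Of 40 genes of DNA replication and the G1/S transition, 33 rose in H2810 and 31 rose in MSTO-211H (22.5% and 21.7% of all genes). Their difference was called higher for 8 and lower for 10 (11.2% and 16.5% of all genes), with a median of 0.03. The 8 became 5 without H2810 random replicate 2, MSTO-211H random replicate 2 or MSTO-211H shBAP1 replicate 2, and the 10 became 6 without MSTO-211H random replicate 1 or either MSTO-211H shBAP1 library. The 35 mitotic genes became no fewer than 30 in any of the 15 alternative settings.

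NUF2, a kinetochore subunit, had the largest difference of the mitotic list. It stood at 12.7 and 14.0 CPM in H2810 with the random shRNA, 29.2 and 31.3 with shBAP1, 36.5 and 37.7 in MSTO-211H with the random shRNA and 24.6 and 25.4 with shBAP1. The random-hairpin level was lower in H2810 than in MSTO-211H and with shBAP1 the 2 lines lay within 24.6 to 31.3 CPM. It rose by 1.18 ± 0.07 and fell by 0.57 ± 0.07 (difference -1.75 ± 0.10, adjusted p = 6.53e-07). CDC25B, a phosphatase that starts mitosis, stood at 238 and 230.4 CPM in H2810 with the random shRNA, 407 and 401 with shBAP1, 329.5 and 335 in MSTO-211H with the random shRNA and 289 and 284 with shBAP1. It rose in H2810 by 0.79 ± 0.05 and fell by 0.21 ± 0.04 in MSTO-211H. HMMR, a spindle protein, was not called in H2810 (-0.01 ± 0.05, adjusted p = 0.958) and fell by 0.99 ± 0.05 in MSTO-211H. CCNB1, the mitotic cyclin B1, rose by 0.49 ± 0.06 and fell by 0.31 ± 0.05, whereas CCNA2, cyclin A2, was the 1 member with a higher response in MSTO-211H (0.41 ± 0.05 and 0.73 ± 0.05). AURKA and PLK1, kinases of the spindle, rose in H2810 and were not called in MSTO-211H. MKI67, the proliferation antigen, had no called difference (-0.01 ± 0.29), and its H2810 random libraries were far apart at 353 and 218 CPM.

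Within the replication list the largest difference belonged to CCNE1, cyclin E1 of the G1/S transition. CCNE1 stood at 6.01 and 6.47 CPM in H2810 with the random shRNA, 2.95 and 3.74 with shBAP1, 7.32 and 5.88 in MSTO-211H with the random shRNA and 13.0 and 11.3 with shBAP1. It fell by 0.90 ± 0.17 in H2810 and rose by 0.88 ± 0.14 in MSTO-211H (difference 1.78 ± 0.22, adjusted p = 0.000158). E2F1, which drives S-phase genes, rose in both and more in MSTO-211H (0.68 ± 0.07 and 1.21 ± 0.08). The helicase subunit MCM5 rose by 0.74 ± 0.06 and 0.60 ± 0.06 with no called difference. Among 30 tested p53 targets and CDK inhibitors, 8 had a higher and 5 a lower response in MSTO-211H, with a median of 0.03. Over all genes tested 11.2% were higher and 16.5% lower, and the 5 lie near that share. The 5 became 3 without MSTO-211H shBAP1 replicate 2. ZMAT3, a p53-induced RNA-binding protein, stood at 26.8 and 25.3 CPM in H2810 with the random shRNA, 12.7 and 9.85 with shBAP1, 87.9 and 88.4 in MSTO-211H with the random shRNA and 171 and 158 with shBAP1. It fell in H2810 and rose by 0.90 ± 0.07 in MSTO-211H (difference 2.10 ± 0.12, adjusted p = 8.4e-07). BTG2, an antiproliferative gene, also fell in H2810 and rose in MSTO-211H (-1.11 ± 0.09 and 0.33 ± 0.07), as did the CDK inhibitor CDKN1A by smaller amounts (-0.19 ± 0.05 and 0.32 ± 0.05).

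**Figure D3:**
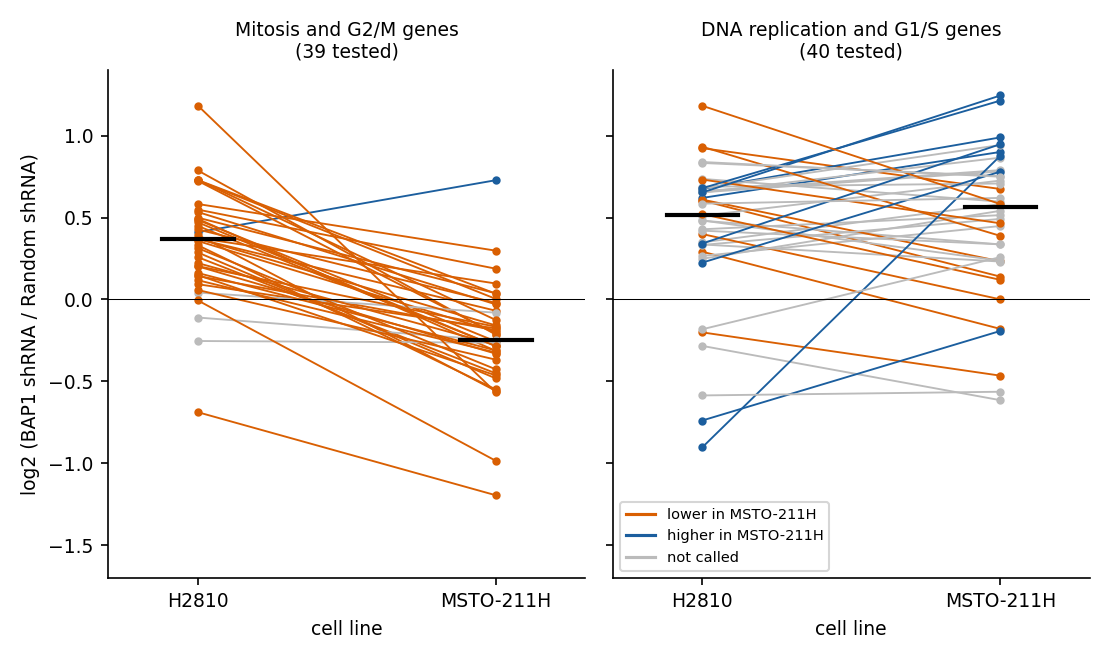
Response to shBAP1 (log2 fold change over the random shRNA) of each tested mitotic gene (left, 39 genes) and replication gene (right, 40 genes), with a line joining the values of 1 gene in H2810 and MSTO-211H; colours mark the called direction of the difference and the black bars the median of the list in each line. Most lines slope down in the left panel, where the median passes from 0.37 to -0.25, while in the right panel it is 0.52 and 0.56.

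Genes of BMP signalling, whose ligands act through SMAD proteins and switch on the ID genes, had higher responses in MSTO-211H. ID proteins block basic helix-loop-helix factors. Of 20 tested genes of this list, 10 had a higher and 2 a lower response in MSTO-211H, with a median difference of 0.80. ID2 (chr2:8678845-8684461) stood at 8.76 and 10.6 CPM in H2810 with the random shRNA, 9.63 and 10.4 with shBAP1, 0.957 and 0.868 in MSTO-211H with the random shRNA and 17.2 and 17.0 with shBAP1. Its H2810 groups overlapped, and in MSTO-211H it passed from below to above the H2810 level. It rose by 4.22 ± 0.16 in MSTO-211H and was not called in H2810 (0.06 ± 0.11, adjusted p = 0.721), a difference of 4.16 ± 0.21 (adjusted p = 2.98e-07). ID3 stood at 501 and 522 CPM in H2810 with the random shRNA, 382 and 378 with shBAP1, 44.1 and 32.5 in MSTO-211H with the random shRNA and 192 and 187 with shBAP1. It fell by 0.43 ± 0.09 in H2810 and rose by 2.31 ± 0.10 in MSTO-211H (difference 2.74 ± 0.14, adjusted p = 2.99e-07). ID1 rose in both, by 0.52 ± 0.10 and 1.95 ± 0.10. ATOH8, a BMP-induced transcription factor, fell by 0.29 ± 0.06 and rose by 2.52 ± 0.11 (difference 2.81 ± 0.13). SMAD6, an inhibitor that BMP signalling induces, stood at 8.46 and 10.2 CPM in H2810 with the random shRNA, 8.23 and 7.29 with shBAP1, 5.60 and 5.25 in MSTO-211H with the random shRNA and 17.4 and 17.6 with shBAP1; it rose in MSTO-211H and was not called in H2810, with a difference of 1.95 ± 0.17. The 2 genes with a lower response were extracellular antagonists of BMP and activin ligands. GREM1 had 43 and 28 counts in H2810 with the random shRNA, 76 and 68 with shBAP1, 38 and 42 in MSTO-211H with the random shRNA and 11 and 9 with shBAP1; it rose in H2810 and fell in MSTO-211H (difference -3.10 ± 0.37). FST fell by 1.87 ± 0.09 in MSTO-211H and was not called in H2810 (0.59 ± 0.28), with a difference of -2.46 ± 0.30. The ligand BMP4 fell by 0.55 ± 0.10 in H2810 and was not called in MSTO-211H (0.16 ± 0.07).

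Wnt ligands act through frizzled receptors and beta-catenin, which induces its own inhibitors. Of 28 tested Wnt pathway genes, 11 had a higher response in MSTO-211H and none a lower one, with a median difference of 0.57, or 0.41 when the 2 genes with no counts in a group were set to a floor of 3 counts. With at least 50 counts required in 2 libraries, 21 of these genes were tested and the 11 became 7. The calls of 5 held in all 15 alternative settings. AXIN2, a feedback inhibitor induced by beta-catenin, stood at 19.5 and 20.2 CPM in H2810 with the random shRNA, 9.37 and 10.7 with shBAP1, 2.25 and 1.88 in MSTO-211H with the random shRNA and 3.17 and 2.69 with shBAP1. It fell by 0.99 ± 0.10 in H2810 and rose by 0.50 ± 0.19 in MSTO-211H (difference 1.49 ± 0.21, adjusted p = 0.000404). The frizzled receptor FZD1 rose by 0.93 ± 0.15 in MSTO-211H and was not called in H2810 (-0.28 ± 0.12). DKK3, a secreted relative of the Wnt antagonists, stood at 515 and 538 CPM in H2810 with the random shRNA, 307 and 301 with shBAP1, 42.6 and 39.2 in MSTO-211H with the random shRNA and 44.1 and 39.7 with shBAP1. It fell by 0.79 ± 0.06 in H2810 and was not called in MSTO-211H (0.03 ± 0.07). The ligand WNT9A was not far above the filter, at 1.85 and 1.90 CPM in H2810 with the random shRNA, 1.06 and 0.985 with shBAP1, 0.957 and 0.771 in MSTO-211H with the random shRNA and 2.21 and 1.67 with shBAP1, with a difference of 2.02 ± 0.36 that was lost in 1 of the 15 alternative settings. DKK1, a secreted Wnt antagonist, and WNT5A fell in both lines with no called difference, which was -0.01 ± 0.08 for DKK1 and -0.07 ± 0.09 for WNT5A. HES1, an effector of Notch signalling from the list of developmental transcription factors, rose in MSTO-211H by 1.49 ± 0.11 and was not called in H2810 (difference 1.53 ± 0.14). IRX3 and SOX9 of the same list fell in H2810 and rose in MSTO-211H (differences 2.35 ± 0.21 and 1.44 ± 0.16).

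**Figure D4:**
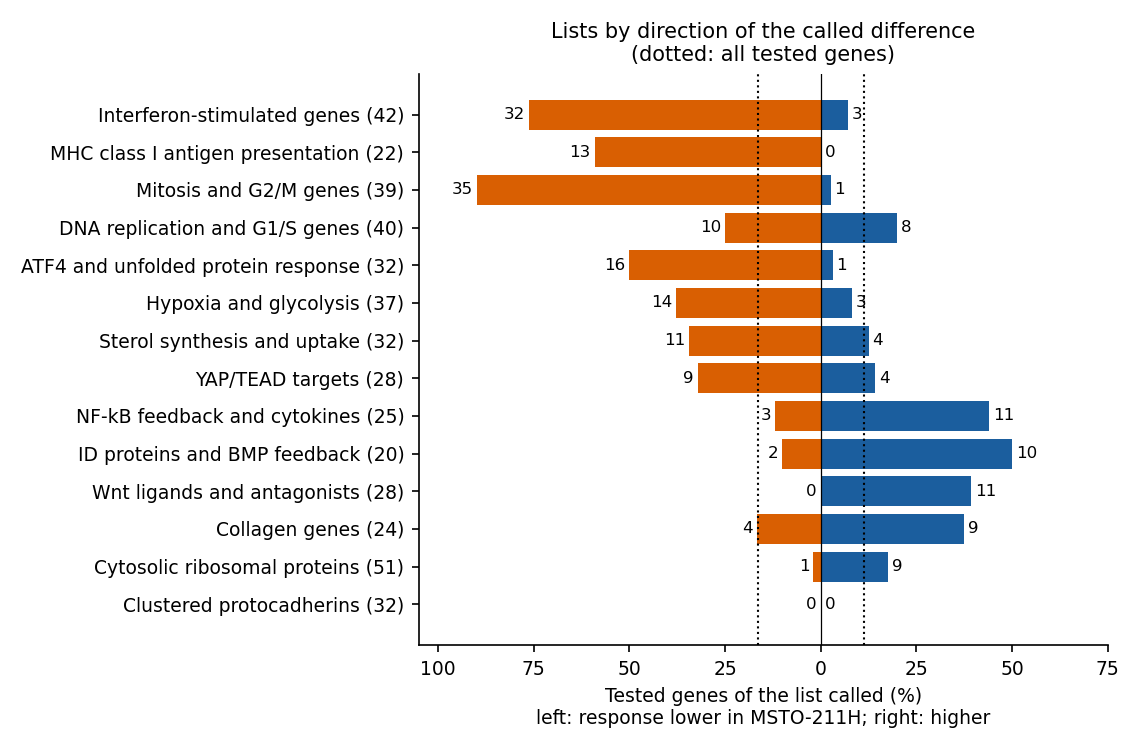
Share of the tested genes of 14 lists (number tested in brackets) called for the difference between lines, to the left for a lower and to the right for a higher response in MSTO-211H, with the number of genes at the end of each bar; dotted lines mark the shares over all genes tested, 16.5% lower and 11.2% higher. Interferon-stimulated, MHC class I and mitotic genes reach furthest to the left, and the ID and BMP, NF-kB and Wnt lists furthest to the right.

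Metallothioneins, small proteins that bind zinc and copper, were called in opposite directions. The list held 4 tested metallothioneins and 2 zinc transporters. MT2A, MT1X and MT1G fell in H2810 and rose in MSTO-211H, and the transporters SLC30A1 and SLC39A10 had no called difference (0.08 ± 0.07 and -0.17 ± 0.07). MT2A (chr16:56608584-56609497) stood at 383 and 426 CPM in H2810 with the random shRNA, 309 and 308 with shBAP1, 107 and 96.1 in MSTO-211H with the random shRNA and 327 and 319 with shBAP1. The level was higher in H2810 with the random shRNA, and with shBAP1 the 2 lines lay within 308 to 327 CPM. It fell by 0.39 ± 0.06 and rose by 1.67 ± 0.07, a difference of 2.06 ± 0.09 (adjusted p = 1.98e-07). MT1X had a difference of 2.13 ± 0.14 and MT1G of 2.25 ± 0.22. The metallothioneins lie together on chromosome 16 and are close copies of each other, so reads may be split between them. MT1E had 0 and 0 counts in MSTO-211H with the random shRNA and 1 and 0 with shBAP1, against 340 and 351 and 262 and 249 in H2810, and was not called.

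NF-kB is the transcription factor of inflammatory cytokines, and it induces its own inhibitors. Of 25 tested NF-kB feedback and cytokine genes, 11 had a higher and 3 a lower response in MSTO-211H, with a median difference of 0.52; the 3 became 1 with DESeq2 or without H2810 random replicate 1. In MSTO-211H 17 rose and none fell (21.7% and 24.5% of all genes). In H2810 14 rose and 2 fell (22.5% and 23.3% of all genes). NFKBIA, the inhibitor that holds NF-kB in the cytoplasm, stood at 128 and 132 CPM in H2810 with the random shRNA, 140.3 and 139 with shBAP1, 68.9 and 61.4 in MSTO-211H with the random shRNA and 135 and 134 with shBAP1. Its random-hairpin level was lower in MSTO-211H, and with shBAP1 the 2 lines were within 134 to 140.3 CPM. It rose by 1.05 ± 0.06 in MSTO-211H and was not called in H2810 (0.10 ± 0.06), a difference of 0.95 ± 0.08 (adjusted p = 1.15e-05). CCL5, a chemokine that attracts T cells, stood at 511 and 546 CPM in H2810 with the random shRNA, 935 and 929 with shBAP1, 2.01 and 2.60 in MSTO-211H with the random shRNA and 16.2 and 15.5 with shBAP1. It rose by 0.82 ± 0.06 and 2.77 ± 0.11 (difference 1.96 ± 0.12, adjusted p = 1.52e-06). RELB, an NF-kB subunit, rose in both, by 0.62 ± 0.07 and 1.52 ± 0.08. TNFAIP2, a cytokine-induced gene, stood at 3.56 and 3.40 CPM in H2810 with the random shRNA, 3.21 and 4.48 with shBAP1, 37.5 and 36.4 in MSTO-211H with the random shRNA and 149 and 147 with shBAP1 (difference 1.87 ± 0.17). CXCL8, the neutrophil attractant interleukin-8, had 43 and 34 counts in H2810 with the random shRNA, 54 and 56 with shBAP1, 1 and 3 in MSTO-211H with the random shRNA and 99 and 91 with shBAP1. It rose in MSTO-211H, and its difference of 4.88 ± 0.48 (adjusted p = 3.03e-05) rests on 4 counts in the lowest group. BIRC3, an inhibitor of cell death, had a difference of 0.87 ± 0.07. IL32 went the other way (1.31 ± 0.13 in H2810 and 0.24 ± 0.06 in MSTO-211H). IL6 rose in both lines (1.96 ± 0.11 and 2.48 ± 0.45) with no called difference (0.52 ± 0.49, adjusted p = 0.528). The kB motif, GGGA, any base and then TTTCC, was found on either strand in 12 of the 26 promoters matched to the list (46.2%) against 0.579% of 27305 promoters.

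Complement genes split. Of 14 tested complement and acute-phase genes, 6 had a higher and 4 a lower response in MSTO-211H. C3, the central complement component, stood at 273 and 251 CPM in H2810 with the random shRNA, 412 and 352 with shBAP1, 70.2 and 57.1 in MSTO-211H with the random shRNA and 319.5 and 309 with shBAP1. It rose in both lines, by 0.55 ± 0.09 and 2.30 ± 0.10, with a difference of 1.76 ± 0.13 (adjusted p = 5.34e-06). CLU, a secreted chaperone and complement inhibitor, stood at 204 and 217 CPM in H2810 with the random shRNA, 96.3 and 94.7 with shBAP1, 127 and 118 in MSTO-211H with the random shRNA and 169.8 and 171 with shBAP1. It fell by 1.14 ± 0.05 in H2810 and rose by 0.48 ± 0.05 in MSTO-211H (difference 1.62 ± 0.08, adjusted p = 2.17e-07). PTX3, an acute-phase pentraxin, stood at 34.2 and 39.6 CPM in H2810 with the random shRNA, 63.6 and 60.5 with shBAP1, 487 and 617 in MSTO-211H with the random shRNA and 156 and 163 with shBAP1. It rose by 0.75 ± 0.11 in H2810 and fell by 1.79 ± 0.10 in MSTO-211H (difference -2.54 ± 0.15, adjusted p = 7.41e-07).

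Of 37 tested EMT and mesenchymal genes, 9 had a higher and 11 a lower response in MSTO-211H, with a median difference of -0.04. The genes named in this paragraph all fell more in MSTO-211H, and none of the 9 is among them. AXL belongs to other lists. AXL (chr19:41219223-41261766), a receptor tyrosine kinase, stood at 131 and 131 CPM in H2810 with the random shRNA, 116 and 112 with shBAP1, 584 and 600.0 in MSTO-211H with the random shRNA and 185 and 191 with shBAP1. It fell by 0.20 ± 0.05 in H2810 and fell by 1.65 ± 0.05 in MSTO-211H (difference -1.46 ± 0.07, adjusted p = 2.07e-07). ITGA4, an integrin that binds fibronectin and VCAM1, fell by 0.62 ± 0.06 in H2810 and fell by 2.10 ± 0.07 in MSTO-211H. ITGA3 and ITGB1 of the same family also fell more in MSTO-211H (differences -0.87 ± 0.07 and -0.78 ± 0.07). Over the 21 tested integrin subunits more were higher (5) than lower (3), and the 3 lie near the 16.5% of all genes. The 5 became 3 without MSTO-211H random replicate 1, random replicate 2 or shBAP1 replicate 1, and 2 without shBAP1 replicate 2. FAP and SNAI2, a surface protease and a transcription factor of mesenchymal cells, fell in both lines and more in MSTO-211H (differences -1.60 ± 0.25 and -1.25 ± 0.12).

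Of 24 tested collagen genes, 9 had a higher and 4 a lower response in MSTO-211H, with a median difference of 0.46. Over all genes tested 11.2% were higher and 16.5% lower, and the 4 lie near that share. COL4A5, of basement membranes, stood at 160.4 and 144 CPM in H2810 with the random shRNA, 232 and 203 with shBAP1, 49.9 and 44.8 in MSTO-211H with the random shRNA and 159 and 153 with shBAP1. It rose by 0.51 ± 0.07 and 1.72 ± 0.08 (difference 1.21 ± 0.11, adjusted p = 1.59e-05). COL3A1, a fibrillar collagen, fell by 0.27 ± 0.05 in H2810 and rose by 0.38 ± 0.05 in MSTO-211H. FN1, fibronectin, fell in both with no called difference (-0.16 ± 0.29), and its random-hairpin libraries in H2810 were far apart at 48182 and 31317 CPM.

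Of 28 targets of YAP and TEAD, effectors of the Hippo pathway, 4 were called higher and 9 lower, with a median of -0.05. Over all genes tested 11.2% were higher and 16.5% lower, and the 4 lie near that share. CCN1, a matricellular protein, stood at 177 and 176 CPM in H2810 with the random shRNA, 266 and 271 with shBAP1, 726 and 746 in MSTO-211H with the random shRNA and 431 and 438 with shBAP1. It rose by 0.60 ± 0.04 and fell by 0.76 ± 0.04 (difference -1.36 ± 0.06, adjusted p = 2.07e-07). CCN2, its relative, fell in both lines and more in H2810 (-2.54 ± 0.06 and -2.00 ± 0.07). ANKRD1, a nuclear YAP target, fell by 0.15 ± 0.05 in H2810 and rose in MSTO-211H (difference 1.35 ± 0.07). The TEAD motif CATTCC was found in 8 of 21 matched promoters (38.1%) against 14% of all promoters.

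Growth factor and receptor genes moved both ways. Of 34 tested receptor tyrosine kinases and ligands, 13 were lower and 7 higher in MSTO-211H; the 13 became 8 with DESeq2, and 7, 5 and 6 without MSTO-211H random replicate 1, shBAP1 replicate 1 and shBAP1 replicate 2. FGFR3, a fibroblast growth factor receptor, stood at 3.86 and 3.60 CPM in H2810 with the random shRNA, 2.51 and 3.20 with shBAP1, 0.957 and 0.916 in MSTO-211H with the random shRNA and 7.31 and 7.05 with shBAP1. It passed from the lowest to the highest of the 4 groups in MSTO-211H. FGFR1 fell by 0.39 ± 0.06 in MSTO-211H and was not called in H2810 (0.02 ± 0.05), and FGFR4 had no called difference (0.16 ± 0.20). DDR1, a collagen receptor kinase, fell by 0.44 ± 0.06 in H2810 and rose by 0.39 ± 0.06 in MSTO-211H. FGF5, a fibroblast growth factor, stood at 1.16 and 0.778 CPM in H2810 with the random shRNA, 1.67 and 1.33 with shBAP1, 107 and 103 in MSTO-211H with the random shRNA and 48.6 and 47.7 with shBAP1; it fell by 1.12 ± 0.06 in MSTO-211H and was not called in H2810 (difference -1.74 ± 0.24). FGF18 had 2 and 3 counts in H2810 with the random shRNA, 1 and 0 with shBAP1, 136 and 111 in MSTO-211H with the random shRNA and 485 and 538 with shBAP1. It rose in MSTO-211H, and H2810 held too few counts for a ratio. MET, the receptor of hepatocyte growth factor, rose in H2810 and fell in MSTO-211H (0.32 ± 0.06 and -0.42 ± 0.06). Among the ERK output genes, 9 of 26 were higher and 4 lower. The 4 lie near the 16.5% of all genes tested that were lower. DUSP5, a phosphatase of ERK, rose by 0.30 ± 0.08 in H2810 and fell by 1.12 ± 0.08 in MSTO-211H. SPRY1, an inhibitor of receptor signalling, fell by 1.33 ± 0.10 in H2810 and was not called in MSTO-211H (-0.03 ± 0.11).

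Amino acid, hypoxia and sterol genes more often had a lower than a higher response in MSTO-211H. So did all genes tested, with 16.5% lower and 11.2% higher. Of 32 tested genes of ATF4 and the unfolded protein response, 16 were lower and 1 higher, with a median of -0.24. In H2810 15 rose (22.5% of all genes), and in MSTO-211H 15 fell (24.5% of all genes). SLC7A5, the large neutral amino acid transporter, stood at 96.4 and 95.5 CPM in H2810 with the random shRNA, 154 and 146 with shBAP1, 1029 and 1009 in MSTO-211H with the random shRNA and 649 and 662 with shBAP1. It rose by 0.64 ± 0.05 and fell by 0.64 ± 0.05 (difference -1.28 ± 0.07, adjusted p = 3.99e-07). Its partner chain SLC3A2 and the serine and glycine synthesis enzymes PHGDH and SHMT2 did the same (differences -0.82 ± 0.07, -0.60 ± 0.07 and -0.70 ± 0.06), while ATF4 itself had no called difference (-0.02 ± 0.07). Of 37 hypoxia and glycolysis genes, 14 were lower and 3 higher, with a median of -0.11. The 3 became 1 with DESeq2 or without MSTO-211H random replicate 1. CA12, a carbonic anhydrase, fell in both lines and more in MSTO-211H (difference -1.53 ± 0.10). ENO2, an enolase, rose by 0.67 ± 0.11 and fell by 1.01 ± 0.09.

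Of 32 sterol synthesis genes, 11 were lower and 4 higher, with a median of -0.08. The 4 lie near the 11.2% of all genes tested that were higher. Most of the list rose in each line, 25 in H2810 and 21 in MSTO-211H (22.5% and 21.7% of all genes). MSMO1, a sterol oxidase, stood at 47.0 and 52.5 CPM in H2810 with the random shRNA, 60.7 and 59.3 with shBAP1, 40.0 and 36.4 in MSTO-211H with the random shRNA and 18.4 and 18.6 with shBAP1. It rose by 0.27 ± 0.07 and fell by 1.04 ± 0.08 (difference -1.31 ± 0.10, adjusted p = 5.39e-06). Of 25 NRF2 targets and aldo-keto reductases, 11 were higher and 5 lower; the 11 became 7 when every gene was tested, and likewise without MSTO-211H random replicate 2 or shBAP1 replicate 1, and the 5 became 3 without random replicate 1 or shBAP1 replicate 2. TXNRD1, thioredoxin reductase, rose in H2810 and fell in MSTO-211H (0.82 ± 0.05 and -0.29 ± 0.05). AKR1C1, an aldo-keto reductase with near-identical paralogs, stood at 1243 and 1362 CPM in H2810 with the random shRNA, 1301 and 1291 with shBAP1, 0.909 and 0.964 in MSTO-211H with the random shRNA and 3.90 and 3.17 with shBAP1; its rise in MSTO-211H gave a difference of 1.91 ± 0.18.

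Polycomb regulators and clustered developmental genes ranged from no called member to most members called. Of 10 tested PR-DUB subunits and partners, MBD6, which binds the complex, was the 1 call (0.03 ± 0.05 in H2810 and 0.49 ± 0.05 in MSTO-211H). Of 12 PRC2 genes 2 were higher and 2 lower, and of 20 PRC1 genes 2 were higher and 2 lower. Over all genes tested 11.2% were higher and 16.5% lower, so these counts do not stand out. Leaving out MSTO-211H shBAP1 replicate 2 took each of these counts to 1, and other single libraries did so for some of them. EZH2, the methyltransferase of PRC2, had a difference of 0.06 ± 0.08 (adjusted p = 0.642). PHF19, an accessory subunit of PRC2, fell by 0.53 ± 0.05 in H2810 and fell by 1.26 ± 0.07 in MSTO-211H. HOXC genes, homeobox genes of body position, had 5 lower and no higher responses among 8 tested, and 3 lower with DESeq2. HOXC10 had 386 and 318 counts in H2810 with the random shRNA, 285 and 265 with shBAP1, 25 and 25 in MSTO-211H with the random shRNA and 3 and 6 with shBAP1 (difference -2.18 ± 0.37). HOXC6 fell by 0.78 ± 0.11 in MSTO-211H and was not called in H2810 (0.24 ± 0.10). Of the HOXA cluster 3 of 14 tested were lower, against 16.5% of all genes; the 3 became 0 with DESeq2 and 1 without MSTO-211H random replicate 1 or either MSTO-211H shBAP1 library. Of HOXB 3 of 9 were lower and 1 higher (0 higher in several settings, DESeq2 among them), and of HOXD 0 of 6 were called in either direction. HOXB9 rose by 0.47 ± 0.08 in H2810 and fell by 0.36 ± 0.06 in MSTO-211H. Clustered protocadherins, neuronal adhesion molecules encoded in tandem, had no called difference among 32 tested, against 27.7% of all genes. In H2810 23 fell and in MSTO-211H 17 (23.3% and 24.5% of all genes), and none rose in either. Their median difference was 0.26. Of the 32, 9 were under 1 CPM in both H2810 groups and 14 in both MSTO-211H groups, so differences of these genes could be missed. In the 15 alternative settings 0 to 2 were called higher and 0 lower.

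**Figure D5:**
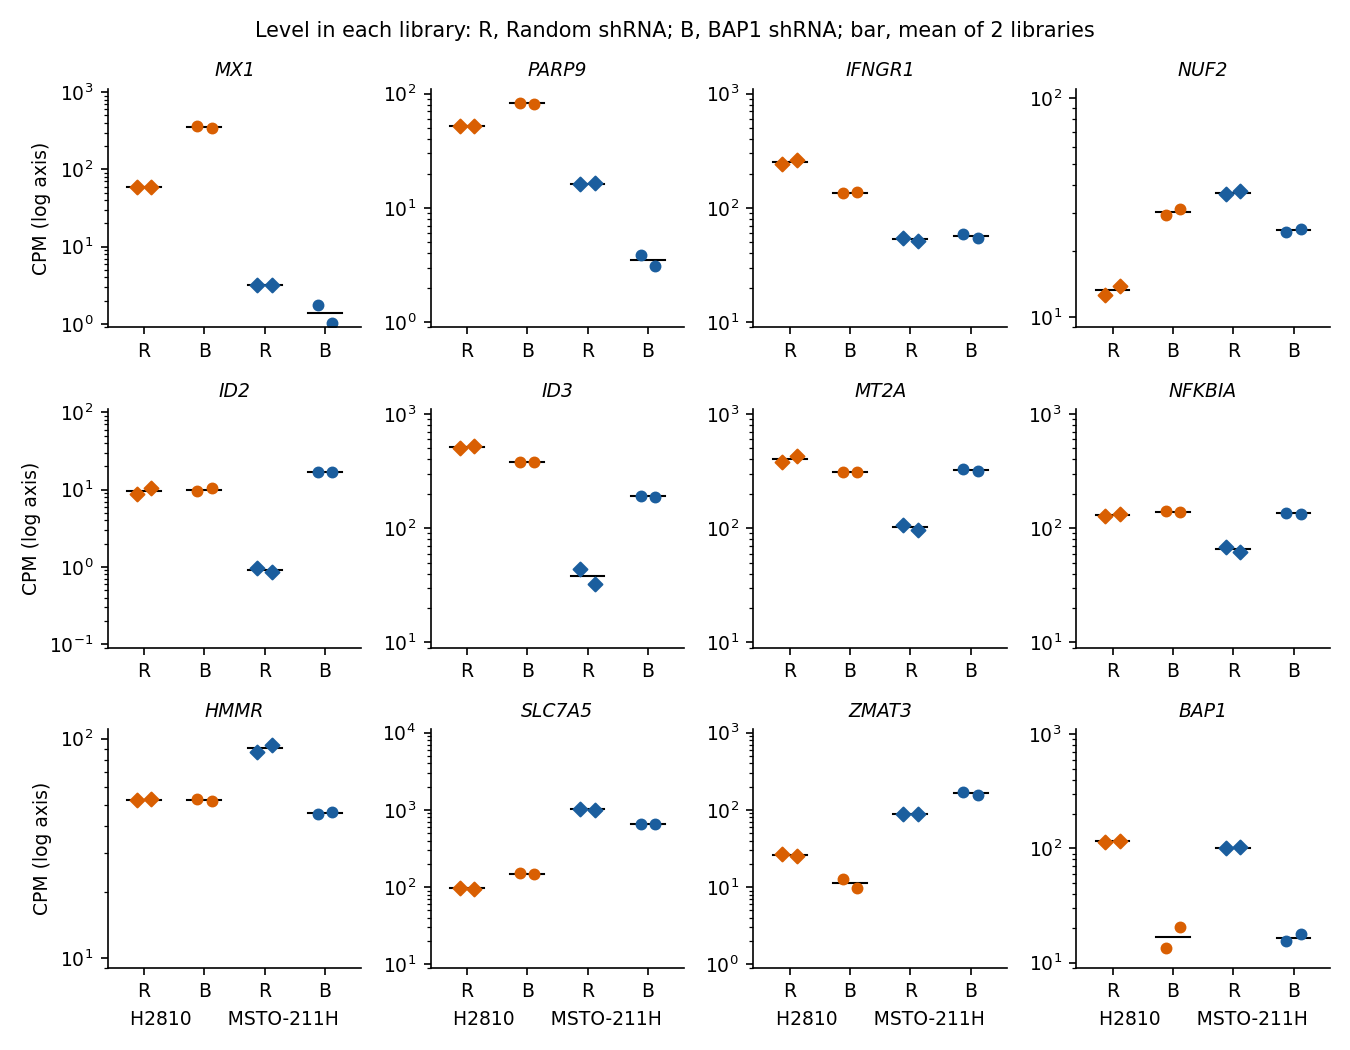
Level of 12 genes in each of the 8 libraries, in CPM on a log axis that differs between panels: diamonds, random shRNA; circles, shBAP1; orange, H2810; blue, MSTO-211H; the bar is the mean of 2 libraries. The groups within each line are apart for MX1, PARP9, NUF2, ID3, MT2A, SLC7A5, ZMAT3 and BAP1, a change was called in H2810 alone for IFNGR1 and in MSTO-211H alone for ID2 and HMMR, and NFKBIA reaches the H2810 level with shBAP1.

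Genes outside these lists had some of the largest differences. Among those that went in opposite directions, ERVFRD-1, an endogenous retroviral envelope gene that encodes syncytin-2, stood at 2.27 and 2.77 CPM in H2810 with the random shRNA, 1.36 and 1.43 with shBAP1, 0.622 and 0.771 in MSTO-211H with the random shRNA and 10.6 and 10.1 with shBAP1. It fell by 0.85 ± 0.21 in H2810 and rose by 3.88 ± 0.19 in MSTO-211H, a difference of 4.73 ± 0.29 (adjusted p = 1.22e-06). CRYBG1, a crystallin-domain gene, stood at 95.7 and 80.4 CPM in H2810 with the random shRNA, 115 and 102 with shBAP1, 9.19 and 8.53 in MSTO-211H with the random shRNA and 0.818 and 1.01 with shBAP1. It rose by 0.30 ± 0.08 in H2810 and fell by 3.26 ± 0.22 in MSTO-211H (difference -3.56 ± 0.24). The other opposite genes at this rank had few counts. SSTR1, a somatostatin receptor, stood at 2.70 and 2.97 CPM in H2810 with the random shRNA, 7.87 and 7.49 with shBAP1, 1.72 and 2.27 in MSTO-211H with the random shRNA and 0.337 and 0.793 with shBAP1 (difference -3.23 ± 0.38). MYLK3, a myosin kinase, stood at 5.41 and 5.20 CPM in H2810 with the random shRNA, 1.67 and 1.38 with shBAP1, 1.82 and 0.916 in MSTO-211H with the random shRNA and 6.44 and 6.48 with shBAP1 (difference 4.02 ± 0.32). AQP3, a water and glycerol channel, stood at 9.70 and 10.7 CPM in H2810 with the random shRNA, 7.74 and 6.60 with shBAP1, 0.0957 and 0.145 in MSTO-211H with the random shRNA and 1.15 and 0.749 with shBAP1 (difference 3.42 ± 0.52). LINC02593 and the transcript SSPOP fell in H2810 and rose in MSTO-211H with differences of 3.67 ± 0.33 and 3.47 ± 0.30.

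Cell adhesion and guidance genes in other lists showed the same range of patterns. NRP2, a receptor for semaphorins and vascular growth factors, stood at 98.2 and 87.1 CPM in H2810 with the random shRNA, 44.0 and 40.8 with shBAP1, 131 and 132 in MSTO-211H with the random shRNA and 147 and 136 with shBAP1. It fell by 1.13 ± 0.07 in H2810 and was not called in MSTO-211H (0.11 ± 0.06). Its relative NRP1 had the reverse pattern, with a fall of 1.13 ± 0.10 in MSTO-211H and no call in H2810 (-0.03 ± 0.08). SEMA3F, a ligand of NRP2, stood at 10.7 and 11.2 CPM in H2810 with the random shRNA, 51.0 and 50.5 with shBAP1, 30.7 and 25.5 in MSTO-211H with the random shRNA and 55.7 and 53.2 with shBAP1. It rose more in H2810, by 2.21 ± 0.09 against 0.96 ± 0.08. Over the 24 tested semaphorins and receptors 7 were higher and 5 lower, and the 7 became 4 without MSTO-211H shBAP1 replicate 2. CLDN1, a tight junction protein, rose in both and more in H2810 (2.47 ± 0.13 and 0.76 ± 0.06), and PKP2, a desmosome protein, fell by 0.95 ± 0.06 in H2810 and rose in MSTO-211H by 0.22 ± 0.05. BCL2, an inhibitor of apoptosis, fell by 1.54 ± 0.39 in H2810, at about 1 CPM or less, and rose by 0.30 ± 0.11 in MSTO-211H. Ribosomal proteins, which are highly expressed in both lines, were higher for 9 of 51 and lower for 1. In either direction 19.6% were called, against 27.7% of all genes tested. The 9 ranged from 5 to 25 over the alternative settings, with 25 without H2810 random replicate 1.

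Among genes that rose in both lines, KRT80, a keratin, rose more in H2810, from 11.2 and 11.6 to 107 and 104 CPM, than in MSTO-211H, where it passed from 443 and 404 to 1124 and 1119 CPM. Its responses were 3.21 ± 0.07 and 1.40 ± 0.05 (difference -1.81 ± 0.08). SERPINB2, an inhibitor of plasminogen activators, rose from 32.1 and 33.6 to 165 and 166 CPM in H2810 and from 412 and 438 to 485 and 473 CPM in MSTO-211H (difference -2.16 ± 0.07, adjusted p = 7.55e-08). CALB2, calretinin, a marker of mesothelial cells, rose more in MSTO-211H (0.88 ± 0.09 and 2.23 ± 0.10, difference 1.35 ± 0.13). The mesothelial markers as a list went both ways. Of 16 tested, 4 had a higher and 4 a lower response in MSTO-211H (11.2% and 16.5% of all genes). TM4SF1, of the same list, had a lower response there. It passed from 46.7 and 45.8 to 18.8 and 18.99 CPM in MSTO-211H. In H2810 it passed from 80.7 and 91.95 to 66.4 and 65.9 CPM.

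A further part of the largest differences came from genes that 1 line hardly expressed. Genes under 1 CPM in both groups of a line made up 24.1% of those tested, 5.3% of those called and 23.9% of those called with at least 2-fold. Their counts are given from the random shRNA to shBAP1. SCN9A, a sodium channel, passed from 903 and 876 to 139 and 168 counts in MSTO-211H and from 0 and 0 to 1 and 3 in H2810. LIPC, hepatic lipase, passed from 175 and 173 to 50 and 43 counts in H2810 and from 0 and 0 to 1 and 2 in MSTO-211H. ADAMTS2, a procollagen protease, passed from 253 and 231 to 100 and 75 in H2810 and from 0 and 1 to 1 and 7 in MSTO-211H. The fall is thus carried by 1 line in each of these 3 genes. SSTR2, a somatostatin receptor, passed from 68 and 55 to 170 and 145 in H2810 and from 0 and 0 to 4 and 7 in MSTO-211H. EGF, epidermal growth factor, passed from 261 and 237 to 192 and 171 in H2810 and from 4 and 2 to 0 and 0 in MSTO-211H. CYP4X1, a cytochrome P450, passed from 100 and 93 to 80 and 63 in H2810 and from 5 and 2 to 0 and 0 in MSTO-211H. For these 3 genes MSTO-211H held at most 7 counts in a library. MPP1, a membrane scaffold protein, passed from 1004 and 917 to 485 and 434 in H2810 and from 15 and 13 to 0 and 1 in MSTO-211H. C4BPA, a complement inhibitor, passed from 614 and 560 to 756 and 723 in H2810 and from 1 and 0 to 35 and 23 in MSTO-211H. No ratio is given for the line with so few counts. The calls of SCN9A, LIPC, ADAMTS2, SSTR2, EGF, CYP4X1 and FGF18 were lost in 1 or more left-out libraries.

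Library totals ran from 19707304 to 23217215 counts. Replicates were less alike in H2810. There chi-square per degree of freedom between the 2 libraries of a group was 17.85 and 18.21, against 2.305 and 2.335 in MSTO-211H. By the median absolute log2 difference between replicates the lines were closer, at 0.109 and 0.112 in H2810 and 0.083 and 0.0876 in MSTO-211H. The test shares 1 spread over both lines. Fitted with a spread for each line, limma-voom called 4451 genes, 4218 of them among the 4397. Summed mesothelial markers were 2086 to 2170 CPM in H2810 and 9085 to 11397 CPM in MSTO-211H. Most of the MSTO-211H sum was the keratins KRT8 and KRT18, at 4396 and 4862 CPM in its random replicate 1. Single markers went both ways. Mesothelin, MSLN, was 1.33 to 2.40 CPM in H2810 and 155.6 to 177.5 in MSTO-211H. With the random shRNA, ITLN1 was 169 and 183.5 CPM in H2810 and 21.9 and 18.3 in MSTO-211H. WT1 was 24.8 and 25.4 CPM against 7.42 and 7.52 in the same groups. MUC16 was at 0 in every library, and UPK1B in all but 1 library, which had 1 count. Summed fibroblast markers, which include collagens, were 7709 to 11012 CPM in H2810 and 1044 to 1289 CPM in MSTO-211H, with COL1A2 at 0 or 1 count in every library of both lines and LUM at 0 in H2810. Of 10 leukocyte markers the T cell marker CD3E was at 0 in every library and the sum was 2.36 to 4.33 CPM. Of the 5 tested, PTPRC and ITGAM rose in MSTO-211H, from 2 and 6 to 33 and 37 and from 4 and 3 to 29 and 31 counts, and ADGRE1 and CORO1A fell there, from 25 and 11 to 1 and 3 and from 17 and 7 to 4 and 4 counts. The differences between lines of PTPRC and ITGAM were not called with DESeq2. The 8 endothelial markers summed to 6.20 to 13.6 CPM, and TIE1 fell in MSTO-211H. The part of these markers in the results was not tested. In such bulk samples, fewer cells of a type and less RNA per cell cannot be told apart.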

How the data were processed

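RNA-seq libraries of 8 samples, 2 in each of 4 groups, were used; the 13 other libraries of the series were not used here. The authors deposited whole-number counts per gene in 1 table. The submitters' processing notes name TopHat2 2.0.12, TopHat, HTSeq and DESeq2; the human genome build, annotation and strand setting of the counting are not given in the sources used here. Of 60674 gene identifiers, 60418 were matched to symbols and GRCh38 coordinates in the GENCODE annotation, and promoters are RefSeq's for the first-listed start of a gene (GRCh38.p14).

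In R 4.3.3, edgeR 4.0.16 was fitted to all 8 libraries with a mean for each group (TMM factors, filterByExpr, quasi-likelihood F test), and p-values were adjusted by Benjamini-Hochberg over 15872 genes. The difference is the interaction of line and hairpin, and responses are contrasts within a line from the same fit, with standard errors of log2 values. The code was tested on simulated data. Total counts of 19707304 to 23217215 per library set the precision of low genes. Alternatives were DESeq2 1.42.0, limma 3.58.1 with a spread for each line, other scaling, filters and thresholds, replicate blocks and leaving out each library. Same-numbered libraries did not deviate together (correlations -0.0538 to 0.0636), and no pairing was assumed.

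Named genes are BAP1, EZH2 and the FGF receptors, the 8 largest differences in each direction, the 3 or 5 largest of each kind of difference, and up to 4 called members of each of 46 lists by smallest p; genes of the first 2 kinds needed responses that did not overlap and a log2 CPM averaging 1 or more. The rule and the lists were written with earlier results of these data known, and other list members named were chosen after their values were seen. Some genes chosen by the rule are not reported here.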

Additional observations from a re-analysis of the deposited data

Results flagged for a closer look

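Differences between lines by the edgeR interaction test are repeated here for 11 of the named genes, and other named genes (such as SCN9A, LIPC and C4BPA) had fitted differences of like or larger size. They were CXCL8 with 4.88, ERVFRD-1 with 4.73, ID2 with 4.16, MYLK3 with 4.02, LINC02593 with 3.67, SSPOP with 3.47 and AQP3 with 3.42 on the log2 scale, all with the higher response in MSTO-211H. MX1 with -3.82, CRYBG1 with -3.56, GBP1 with -3.38 and SSTR1 with -3.23 had the lower response there. All 11 calls held in the 15 alternative settings. CXCL8 and AQP3 had few counts in MSTO-211H with the random shRNA.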

How the results depend on the processing

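Of the 4397 calls, 2424 (55.1%) held in all 15 alternative settings and 2571 (58.5%) with every left-out library, and none reversed. Counts of called genes were 4203 with RLE factors, 4263 with no filter, 4231 with a 50-count filter, 3084 with DESeq2, 4451 with limma-voom and a spread for each line, 2628 at an adjusted p under 0.01 and 2180 against a 1.2-fold threshold. With the replicate number as a block the count was 4531, and with a block within each line 5118; the numbers are not taken to pair the libraries. DESeq2 gave 436 opposite and 583 same-direction genes. With 1 library left out, the count of called genes ran from 3052 to 4418, of higher from 1177 to 1733, of lower from 1860 to 2830, of at least 2-fold from 782 to 979, of opposite from 487 to 683, of 1 line only from 1969 to 2732, and of the same direction from 543 to 893. The BAP1 difference ran from -0.11 to 0.49. The share of calls that were higher in MSTO-211H ran from 35.9% to 45.2%, against 40.6%. Why these counts moved was not tested; fewer libraries enter each left-out fit. Of the values for single genes and lists under the alternative settings, 3919 stayed the same. For these a gene kept its sign and call status, or a list count stayed near that of the main fit. A further 140 list counts moved away from it, and 116 single-gene calls no longer passed the threshold. Values that reversed or newly passed the threshold are not in these counts. With 2 libraries a group, and under 10 counts in some groups, ratios of genes near 0 in 1 line are not reported.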

Other observations

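Some called genes lay side by side in the genome. In 7 places at least 5 adjacent tested genes were called in the same direction. Besides the TAP and PSMB genes, these included TRIM21, TRIM68, TRIM6, TRIM5 and TRIM22 on chromosome 11 between 4384897 and 5938619, antiviral and related ubiquitin ligases, all lower in MSTO-211H. On chromosome 4 between 168216294 and 169270956, DDX60 and DDX60L, interferon-induced helicases, were lower with PALLD, CBR4 and SH3RF1. On chromosome 19 between 57746815 and 57889074, 6 zinc finger genes (ZNF776, ZNF586, ZNF552, ZNF587B, ZNF814 and ZNF587) were lower; they are close copies, so their reads may be shared. On chromosome 7 between 24698355 and 26201529, 6 genes from GSDME to HNRNPA2B1 were lower, and on chromosome 11 between 117178736 and 117316259, SIDT2, TAGLN, PCSK7, RNF214 and BACE1 were higher. No test of such runs was made, and coordinates are GRCh38.

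LINC02593 (chr1:916865-921016) stood at 6.18 and 5.74 CPM in H2810 with the random shRNA, 2.24 and 3.74 with shBAP1, 1.58 and 1.40 in MSTO-211H with the random shRNA and 8.08 and 10.8 with shBAP1. The MSTO-211H shBAP1 libraries were the highest of the 8.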
